A study of Mus musculus with 6 samples.

Results

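The immediate-early genes examined were 10 genes of the NR4A, AP-1 and EGR families, namely Nr4a1, Nr4a2, Nr4a3, Fos, Fosb, Fosl2, Jun, Junb, Jund and Egr1. They were taken by gene symbol from the table of counts, which listed 14774 genes, and all 10 were present. The study sequenced RNA from 3 libraries of MA-10 cells, an untreated wild-type line from a mouse Leydig cell tumor, and from 3 libraries of STARKO1 cells, an untreated STAR KO clone of the same line. STARKO1 was grown from 1 sorted cell after CRISPR/Cas9 targeting of Star, so properties of the clone and of the Star mutation cannot be told apart. Neither cell line had been given hormone or cAMP, and the levels below are therefore those of cells in culture medium. The study describes its data in general as coming from independent experiments, but no label ties each library to a separate culture, so p values measure the spread between these libraries, which may be technical.

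Immediate-early genes are transcribed within minutes of a stimulus, without new protein synthesis, and most of their mRNAs are degraded quickly. NR4A proteins are orphan nuclear receptors that bind DNA as monomers or dimers, and in Leydig cells luteinizing hormone raises Nr4a1 through cAMP. FOS and JUN proteins form the dimers known as AP-1, in which FOSL2 and JUND are the partners that resting cells usually hold and FOS, FOSB, JUN and JUNB are the more inducible partners. EGR1 is a zinc finger factor that growth factors and hormones induce through serum response factor. Members of these families have been described as regulators of Star and other steroidogenic genes.

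The promoters of the NR4A genes and of Fos are printed to show the sequence through which cAMP is known to act. RefSeq promoter windows of GRCm38.p6, 250 bases before to 50 bases after the annotated start, were found for 9 of the genes. The core of the cAMP response element, TGACG, was searched on both strands and is printed in capitals, as CGTCA where it lies on the other strand. The window of Nr4a1 is chr15:101266596-101266895 on the plus strand, that of Nr4a2 is chr2:57123954-57124253 on the minus strand, that of Nr4a3 is chr4:48045055-48045354 on the plus strand and that of Fos is chr12:85473640-85473939 on the plus strand. All are written from 5′ to 3′. The gene model of Nr4a1 in the table begins further upstream than this RefSeq start. The model of Jund begins 1210 bases downstream of its RefSeq start, so the Jund window does not reach the start of the model that was counted.
Nr4a1: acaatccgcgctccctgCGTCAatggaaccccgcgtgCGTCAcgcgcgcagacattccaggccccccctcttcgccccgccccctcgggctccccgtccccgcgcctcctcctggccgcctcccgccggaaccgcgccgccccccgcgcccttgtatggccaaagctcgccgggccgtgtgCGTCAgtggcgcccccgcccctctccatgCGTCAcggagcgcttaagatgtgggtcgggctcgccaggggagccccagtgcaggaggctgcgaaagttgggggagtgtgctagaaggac
Nr4a2: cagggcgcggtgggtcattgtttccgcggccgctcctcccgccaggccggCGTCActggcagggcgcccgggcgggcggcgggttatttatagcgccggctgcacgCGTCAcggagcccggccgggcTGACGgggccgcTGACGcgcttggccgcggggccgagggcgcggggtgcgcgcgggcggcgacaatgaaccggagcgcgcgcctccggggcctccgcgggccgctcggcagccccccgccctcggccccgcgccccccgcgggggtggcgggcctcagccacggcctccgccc
Nr4a3: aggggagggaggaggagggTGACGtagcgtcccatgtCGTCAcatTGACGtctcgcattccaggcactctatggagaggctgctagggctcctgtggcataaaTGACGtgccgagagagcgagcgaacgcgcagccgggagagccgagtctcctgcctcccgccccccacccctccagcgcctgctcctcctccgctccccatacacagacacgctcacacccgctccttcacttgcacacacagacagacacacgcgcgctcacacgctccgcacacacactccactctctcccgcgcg
Fos: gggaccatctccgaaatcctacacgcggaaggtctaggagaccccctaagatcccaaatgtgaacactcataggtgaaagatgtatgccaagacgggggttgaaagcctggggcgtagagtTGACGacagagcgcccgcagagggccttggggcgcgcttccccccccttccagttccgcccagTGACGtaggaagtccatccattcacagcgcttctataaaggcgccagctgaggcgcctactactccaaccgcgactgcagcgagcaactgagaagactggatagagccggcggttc

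Each of the 3 NR4A promoters held 4 cores, and 4 or more were found in 0.231% of all 32851 promoter windows of this length. The GC content of the Nr4a1, Nr4a2 and Nr4a3 windows was 72.3%, 81.7% and 64.7%, and the share over all windows was not matched for it. In Nr4a1 the cores began 233, 213, 69 and 40 bases before the start. In Nr4a2 they began 200, 144, 123 and 111 bases before it, and in Nr4a3 231, 213, 205 and 147 bases before it. The Fos promoter held 2 cores, 129 and 66 bases before the start, with a TATAAA motif 33 bases before it, and Fosb and Junb held 1 core each. At least 1 core was present in 20.8% of all windows. The full palindrome TGACGTCA, present in 1.79% of windows, the AP-1 motif TGACTCA, present in 5.20%, and the CArG box to which serum response factor binds, present in 1.63%, were in none of the 9 windows, among which there was none of Egr1. The AP-1-like motif TGACATCA, in 3.62% of windows, lay 45 bases before the start of Jun. The letters GCGGGGGCG, an EGR1 motif found in 2.91% of windows, were present in Nr4a1, Fosb and Fosl2, whereas the EGR1 motif GCGTGGGCG and the NR4A motif AAAGGTCA were in none of the 9. These are matches of letters in a short window and say nothing of binding.

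The libraries held between 14114349 and 19530054 counts, and Nr4a3, with at most 18 counts in a library, was the least well counted of these genes. Levels are given as CPM, that is counts relative to the TMM-scaled library size, and 3 counts were worth up to 0.264 CPM in MA-10 cells against 0.177 CPM in STARKO1 cells. The targeted gene Star, from which the labels can be checked, had 60.9, 109 and 61.4 CPM in the MA-10 libraries and 2.06, 2.71 and 2.02 CPM in the STARKO1 libraries. All 10 Leydig cell markers on the list were measured, with summed levels of 1611 to 2130 CPM in MA-10 cells against 1617 to 1677 CPM in STARKO1 cells. These sums hold opposite moves. Mean Cyp11a1 and Hsd3b1 were 835 and 29.8 CPM in MA-10 cells against 439 and 5.19 CPM in STARKO1 cells. Mean Nr5a1 and Fdxr were 472 and 100 CPM against 633 and 173 CPM. Of the 10, Hsd3b1 alone was differentially expressed. Of 6 macrophage markers, Ptprc, Adgre1 and Lyz2 were not analysed here, Cd14 and Cd68 stayed under the low-count filter, and the summed level of the 3 in the table was 5.38 to 10.1 CPM in MA-10 cells against 6.66 to 8.69 CPM in STARKO1 cells. Of 6 Sertoli and germ cell markers, Dhh and Ddx4 were measured, with sums of 19.1 to 23.6 CPM in MA-10 cells against 19.4 to 22.7 CPM in STARKO1 cells. Of 4 endothelial markers, Cdh5 rose in STARKO1 cells (log2 fold change 1.84, adjusted p = 0.00596) while Pecam1 was at or under 0.860 CPM in every library, and what part this has in the results was not tested. MA-10 replicate 1 stood apart from MA-10 replicates 2 and 3, and results that rest on it are given with and without it. In bulk RNA, fewer cells that express a gene and less RNA per cell cannot be told apart.

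Of the 9 genes that passed the filter on low counts, Egr1 alone was differentially expressed, and it was lower in STARKO1 cells. This was 1 of 9 genes, against 9.04% of all 11939 genes tested in either direction and 4.74% in the lower direction (quasi-likelihood test of edgeR, Benjamini-Hochberg adjusted p under 0.05), so the share called was near that of all genes. At an unadjusted p under 0.05, Egr1 and Fos differed, 2 of 9 genes against 37.6% of all genes tested. The groups did not overlap for Egr1, Jun and Fosl2, 3 of the 9, against 42.5% of all genes tested, and they did not overlap for Nr4a3, which was not tested. The median log2 fold change of the 9 genes was 0.23, beside -0.05 over all genes tested. The plot of CPM by library shows all 10 genes.

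**Figure D1:**
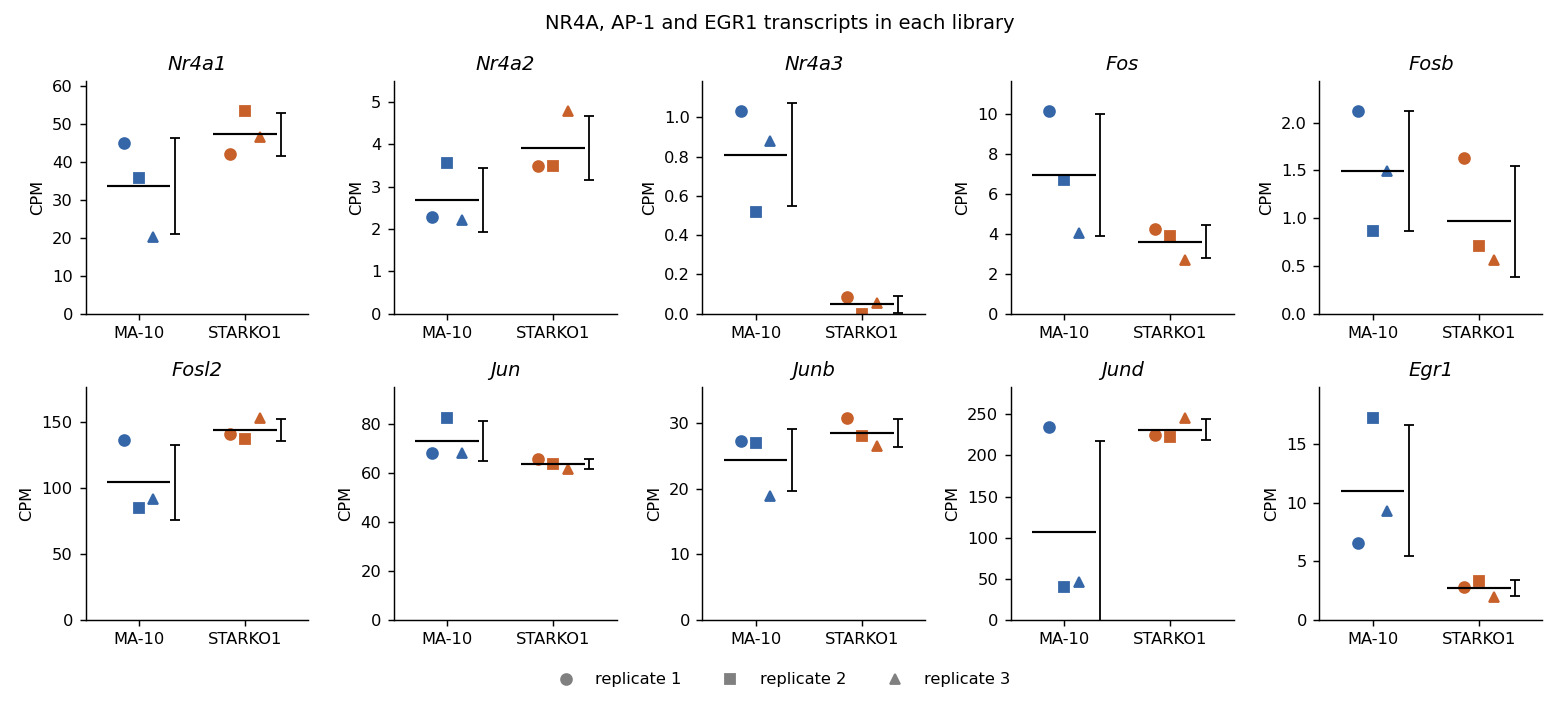
CPM of each gene (y axes, linear from 0) in MA-10 cells (blue) and STARKO1 cells (orange), with 1 symbol per library, the mean as a line and the SD over 3 libraries as a bar. Egr1 and Nr4a3 sit lower in all 3 STARKO1 libraries, Jund is at 39.6 and 45.7 CPM in MA-10 replicates 2 and 3 and at 222 CPM or more in the other 4 libraries, and the SD bar of Jund in MA-10 cells would reach below 0 and ends at the axis.

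Egr1 transcripts were scarcer in STARKO1 cells. The gene spans 34859823 to 34864984 of chromosome 18 (GRCm38, plus strand). Egr1 had 6.53, 17.3 and 9.25 CPM across MA-10 replicates 1 to 3, from 114, 199 and 105 counts. It had 2.80, 3.30 and 1.97 CPM across STARKO1 replicates 1 to 3, from 65, 56 and 35 counts. The highest STARKO1 library was thus below the lowest MA-10 library, which was replicate 1. The level fell from 11.0 ± 5.58 CPM to 2.69 ± 0.674 CPM (SD, n = 3 each), a log2 fold change of -2.03 (SE 0.41, adjusted p = 0.0335), or 4.07-fold. The direction held in all 6 fits that each left out 1 library, with log2 fold changes between -2.20 and -1.55. The call held in 1 of them, without MA-10 replicate 1 (adjusted p = 0.000321), and was lost without MA-10 replicate 2 (0.0528), MA-10 replicate 3 (0.108) and STARKO1 replicates 1, 2 and 3 (0.153, 0.127 and 0.164). It was also lost with scaling by library size alone, at a log2 fold change of -1.46 and an adjusted p of 0.0666.

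The log2 fold changes of Nr4a1 and Nr4a2 were positive and neither passed the test, while Nr4a3 was lower in all STARKO1 libraries. Nr4a1, which encodes NUR77 (chromosome 15 of GRCm38, 101254269 to 101274795, plus strand), was the most abundant NR4A gene and had 44.9, 35.8 and 20.1 CPM across MA-10 replicates 1 to 3. In STARKO1 replicates 1, 2 and 3 it had 42.0, 53.3 and 46.5 CPM, so that MA-10 replicate 1 lay among the STARKO1 libraries and the groups overlapped. Its means were 33.6 ± 12.6 CPM and 47.3 ± 5.67 CPM (SD, n = 3 each), a log2 fold change of 0.49 (SE 0.30, adjusted p = 0.255) that was not significant. Nr4a2, which encodes NURR1 (chromosome 2, 57106830 to 57124003, minus strand), had 2.29, 3.56 and 2.20 CPM in MA-10 cells against 3.48, 3.48 and 4.78 CPM in STARKO1 cells. The second MA-10 library reached the lower STARKO1 libraries, and the log2 fold change of Nr4a2 of 0.55 (SE 0.29, adjusted p = 0.201) was not significant.

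Nr4a3, which encodes NOR1 (chromosome 4, 48045153 to 48086447, plus strand), was scarce in both cell lines. It had 18, 6 and 10 counts across MA-10 replicates 1 to 3, or 1.03, 0.520 and 0.881 CPM. In STARKO1 replicates 1, 2 and 3 it had 2, 0 and 1 counts, or 0.0860, 0 and 0.0562 CPM. All 3 STARKO1 libraries were at or under 3 counts, the smallest level taken as shown, and all 3 MA-10 libraries were above it. The summed counts, 34 against 3, gave 16.3 times more Nr4a3 in MA-10 cells relative to library size, with an exact 95% interval of 5.12 to 82.9 that covers counting error only. Nr4a3 did not pass the filter on low counts. With no filter its adjusted p was 0.0317 in edgeR, in a fit that called 6.41% of 14774 genes. In some fits without 1 library it passed the filter, but through the MA-10 libraries, where it was higher, so these p values are not given.

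Among the FOS genes the inducible members and Fosl2 had opposite signs. Fos (chromosome 12, 85473890 to 85477273, plus strand), the prototype of the family, had 10.1, 6.68 and 4.05 CPM across MA-10 replicates 1 to 3 and 4.26, 3.89 and 2.70 CPM across STARKO1 replicates 1 to 3. MA-10 replicate 1 was highest and MA-10 replicate 3 lay between the STARKO1 libraries, so the groups overlapped. The means of Fos were 6.96 ± 3.05 and 3.62 ± 0.816 CPM (SD, n = 3 each), a log2 fold change of -0.95 (SE 0.37, adjusted p = 0.114) that was not significant, with adjusted p values between 0.0756 and 0.426 over 8 alternatives with all libraries. It was -0.47 (adjusted p = 0.169) without MA-10 replicate 1 and -1.22 (adjusted p = 0.130) without MA-10 replicate 3. Fosb (chromosome 7, 19302696 to 19310051, minus strand) was scarce, with 10 to 37 counts per MA-10 library and 10 to 38 per STARKO1 library. Its levels of 2.12, 0.867 and 1.50 CPM in MA-10 cells against 1.63, 0.707 and 0.562 CPM in STARKO1 cells overlapped, and its log2 fold change was -0.62 (SE 0.52, adjusted p = 0.399). It was -0.15 without MA-10 replicate 1 and -1.16 without STARKO1 replicate 1.

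Fosl2, which encodes FRA-2 (chromosome 5, 32135801 to 32157842, plus strand), made up most of the FOS family RNA. It had 137, 84.6 and 91.5 CPM across MA-10 replicates 1 to 3 and 141, 137 and 153 CPM across STARKO1 replicates 1 to 3. The lowest STARKO1 library and MA-10 replicate 1 differed by less than 1 CPM, whereas MA-10 replicates 2 and 3 lay well below both. The log2 fold change of Fosl2 was 0.46 (SE 0.22, adjusted p = 0.169), which was not significant. Without MA-10 replicate 1 it was 0.80 (adjusted p = 0.000598).

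The JUN genes have no intron in their main transcripts, and Jund and Jun were the most abundant of the 10 genes per kilobase of exon in both cell lines. Jun (chromosome 4, 95049034 to 95052222, minus strand) had 68.2, 82.5 and 68.0 CPM across MA-10 replicates 1 to 3 and 65.6, 63.5 and 61.5 CPM across STARKO1 replicates 1 to 3. The STARKO1 libraries were all below the MA-10 libraries, with a narrow gap between MA-10 replicate 3 and STARKO1 replicate 1. Its log2 fold change of -0.20 (SE 0.15, adjusted p = 0.358, approximate 95% interval -0.50 to 0.10) was not significant, and with scaling by library size alone it turned to 0.26. Jun shares 232 exon bases with the antisense gene Junos, which had 5 counts or fewer per library. Junb (chromosome 8, 84974484 to 84978718, minus strand) had 27.3, 26.9 and 18.9 CPM in MA-10 cells against 30.8, 28.1 and 26.6 CPM in STARKO1 cells. MA-10 replicate 3 was the lowest library, the other 5 lay close together and the groups overlapped, and the log2 fold change of Junb was 0.23 (SE 0.19, adjusted p = 0.403). With offsets for GC content it was -0.075. Junb shares 173 exon bases with Prdx2 on the other strand, which had 139 to 244 CPM, and the sources do not state whether counting used the strand, so reads from these bases cannot be assigned.

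Jund had the largest spread of all 10 genes, and that spread lay within MA-10 cells. Its model spans 70698949 to 70700616 of chromosome 8, plus strand. The counts of Jund were 4099, 457 and 519 across MA-10 replicates 1 to 3, or 235, 39.6 and 45.7 CPM. In STARKO1 replicates 1, 2 and 3 it had 225, 222 and 246 CPM, from 5235, 3774 and 4382 counts. MA-10 replicate 1 lay within the STARKO1 range, while the other MA-10 libraries were 5.50-fold below replicate 1 on average. The means were 107 ± 111 CPM in MA-10 cells against 231 ± 13.0 CPM in STARKO1 cells (SD, n = 3 each), and the log2 fold change of 1.11 (SE 0.67, adjusted p = 0.255) was not significant. Without MA-10 replicate 1 the log2 fold change was 2.53 (SE 0.14, adjusted p = 1.13e-05), and with MA-10 replicate 1 alone against STARKO1, a comparison added once the data had been seen, it was -0.020. The size of the difference therefore depended on which MA-10 libraries were taken, and with replicate 1 alone no difference was detected (SE 0.078, adjusted p = 0.857).

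Some properties of Jund and of the libraries are given beside this result. The GC content of its transcript was 67.1%, and 0.202% of the tested genes with a known GC content had a higher one. The log2 difference between MA-10 replicate 1 and the mean of replicates 2 and 3 rose with GC content over all genes, from a median of -0.47 for the 728 genes under 40% GC to 0.56 for the 55 genes at 65% or more. The difference of Jund, 2.45 on this scale, was far above the median of genes of like GC content, and 0.363% of the tested genes had a larger one. With offsets for GC content the log2 fold change of Jund was 0.95 (adjusted p = 0.201), and with offsets for gene length it was 1.21 (adjusted p = 0.284). The table's model of Jund begins 1210 bases downstream of the RefSeq start. It shares 877 exon bases with the antisense transcript Gm11175, which had no more than 0.401 CPM in MA-10 cells against 0.413 CPM in STARKO1 cells. The part of GC content and of the gene model in the result was not tested beyond these values.

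**Figure D2:**
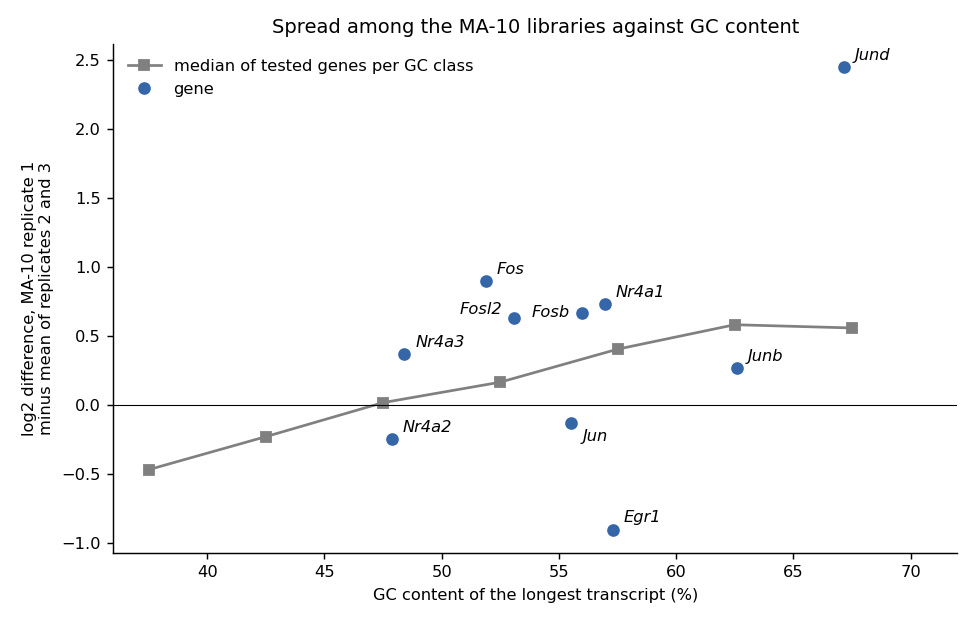
GC content of the longest annotated transcript (x axis, %) against the log2 difference in CPM + 0.5 between MA-10 replicate 1 and the mean of MA-10 replicates 2 and 3 (y axis), for the 10 genes (blue) and as the median of all tested genes in classes of GC content (grey). Jund stands at 2.45, above the grey line, and Egr1 at -0.90, below it.

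The same MA-10 library bore on the other genes to different degrees. Egr1 was lower in replicate 1 than in the mean of replicates 2 and 3, by a log2 difference of -0.90, and Fos, Nr4a1, Fosb and Fosl2 were higher, by 0.90, 0.73, 0.66 and 0.63. Without MA-10 replicate 1, 5 of the 9 genes were differentially expressed, of which Nr4a1, Fosl2, Junb and Jund were higher and Egr1 was lower in STARKO1 cells. In that fit 65.7% of all genes tested were differentially expressed, so the count of 5 is near that of genes at large. Nr4a1 then had a log2 fold change of 0.85 (adjusted p = 0.00969) and Junb of 0.41 (adjusted p = 0.0470). With replicate 1 alone as the MA-10 library, that library was assumed to vary like the STARKO1 libraries, although the MA-10 libraries differed more, and 40.5% of all genes tested were called. In that fit Fos had a log2 fold change of -1.47 (adjusted p = 0.000174), against -0.47 (adjusted p = 0.169) without replicate 1, and Egr1 one of -1.28 (adjusted p = 0.00158). Egr1 was lower in STARKO1 cells in both settings.

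**Figure D3:**
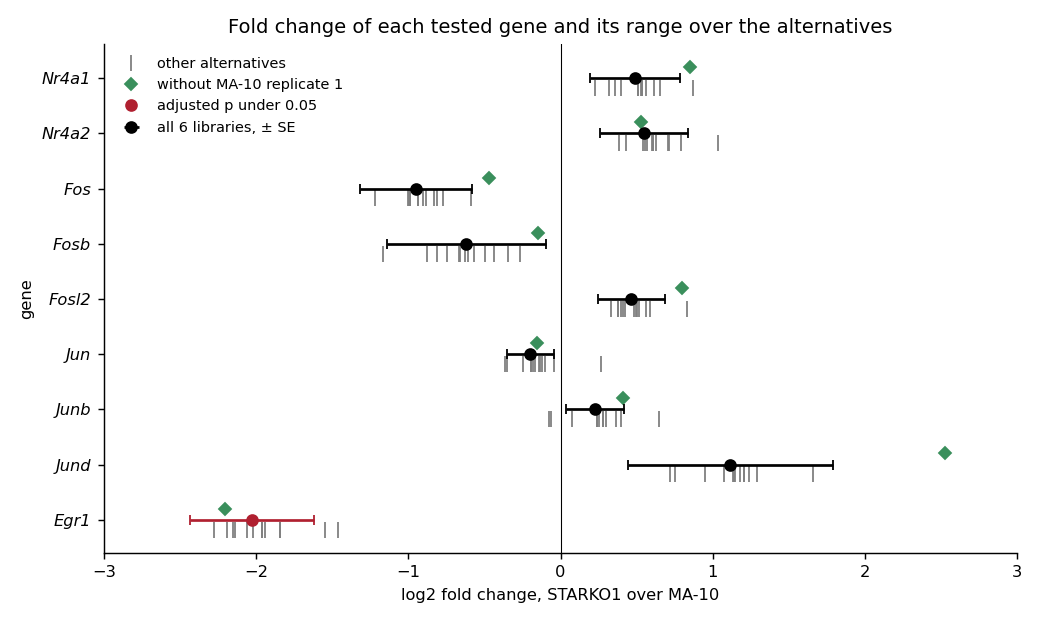
Log2 fold change of STARKO1 over MA-10 cells (x axis) for the 9 genes tested, with points and bars for the value ± SE from all 6 libraries (red where the adjusted p is under 0.05), diamonds for the fit without MA-10 replicate 1 and ticks for the other alternatives. Egr1 stays left of 0 in every fit shown, and the diamond of Jund lies at 2.53, beyond the range of its ticks.

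Levels of different genes were compared as CPM per kilobase of exon. In STARKO1 cells the order was Jund at 139 ± 7.78, Jun at 19.9 ± 0.655, Fosl2 at 14.9 ± 0.880, Nr4a1 at 13.5 ± 1.62 and Junb at 12.4 ± 0.942 CPM per kilobase (SD, n = 3). Fos followed at 1.54 ± 0.347, Nr4a2 at 0.964 ± 0.184, Egr1 at 0.599 ± 0.150, Fosb at 0.155 ± 0.0932 and Nr4a3 at 0.00792 ± 0.00730 CPM per kilobase. Nr4a1 overlapped with Fosl2 above it and Junb below it in this order, as did Fos with Nr4a2, and the other neighbours did not. In MA-10 cells Jund came first at 64.0 ± 66.5 but overlapped with Jun at 22.9 ± 2.60, and Fosl2, Junb and Nr4a1 overlapped at 10.8 ± 2.92, 10.6 ± 2.04 and 9.57 ± 3.58 CPM per kilobase. Fos and Egr1 were next at 2.96 ± 1.30 and 2.46 ± 1.24 CPM per kilobase and overlapped as well, as did Fosb, with 0.139 to 0.339, and Nr4a3, with 0.0869 to 0.172 CPM per kilobase. Egr1 stood above Nr4a2 in MA-10 cells, where Nr4a2 had 0.661 ± 0.187 CPM per kilobase, and below it in STARKO1 cells, and in both cell lines the libraries of these 2 genes did not overlap.

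Within each family the share taken by each gene was computed from the same values. Nr4a1 made up 91.7% ± 2.67 of the NR4A sum in MA-10 cells and 93.2% ± 1.44 in STARKO1 cells (SD, n = 3 each), so this family had the same leading gene throughout. Fosl2 made up 75.2%, 74.6% and 82.8% of the FOS genes in the MA-10 libraries and 87.6%, 88.9% and 92.8% in the STARKO1 libraries. Fos made up 23.0%, 24.2% and 15.1% in MA-10 cells and 10.9%, 10.4% and 6.71% in STARKO1 cells. All STARKO1 libraries lay above all MA-10 libraries for the share of Fosl2 and below them for the share of Fos, and since shares add up to a fixed sum these are not separate observations. A share within a family does not depend on how libraries are scaled. No test was made of the shares, and groups that do not overlap were common, since 42.5% of all genes tested had such groups in CPM. Jund made up 80.9% of the JUN genes in MA-10 replicate 1, 38.8% and 48.1% in the remaining MA-10 libraries and 79.9%, 80.6% and 82.7% in the STARKO1 libraries.

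**Figure D4:**
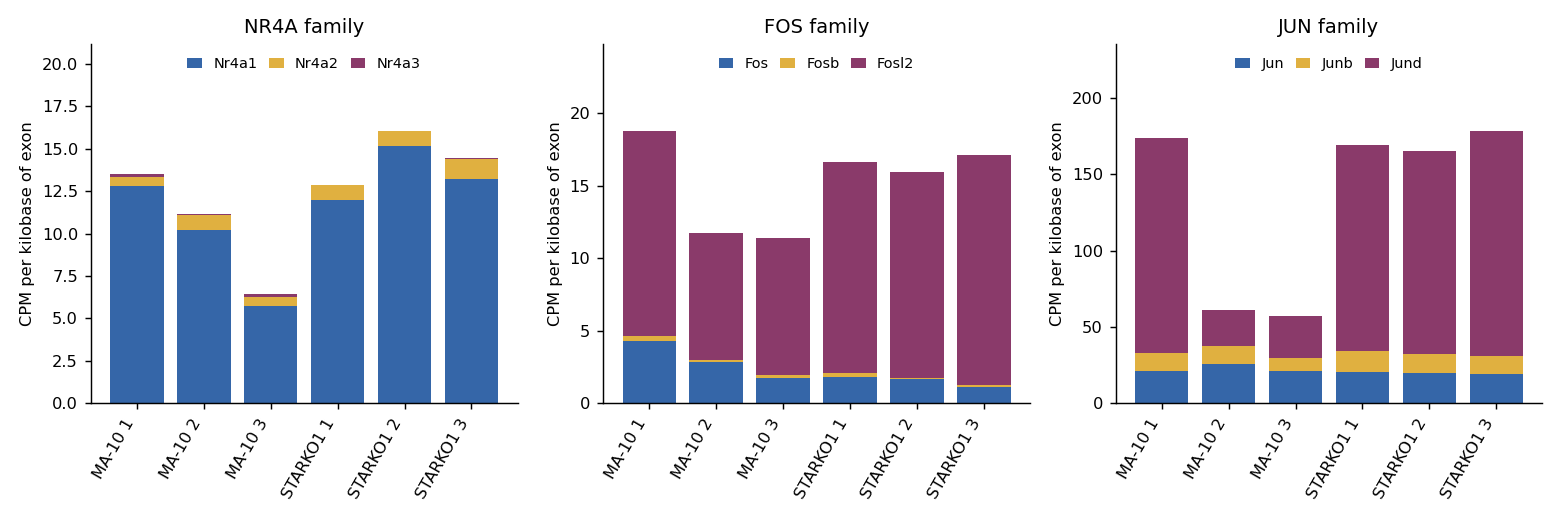
CPM per kilobase of exon (y axes, linear from 0) of the NR4A, FOS and JUN genes in each of the 6 libraries (x axes), stacked by gene. Fosl2 and Nr4a1 lead their families in every library, and the JUN sum is 174 in MA-10 replicate 1, 61.3 and 56.9 in the remaining MA-10 libraries and at least 165 CPM per kilobase in STARKO1 cells.

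Other genes around these factors were taken from 6 lists, which held relatives, upstream regulators, other rapidly induced genes, factors that bind or degrade AU-rich mRNA, and genes described as targets of NR4A, AP-1 or EGR1. Of the 87 genes tested on these lists, 16 were differentially expressed (18.4%, beside 9.04% of all genes tested), with 6 higher and 10 lower in the STARKO1 clone. Star, the edited gene, is among the 16, and the lists were chosen with earlier results known, so the share is a description and not a comparison of like with like. The median log2 fold change of the 87 genes was -0.16, beside -0.05 for all genes. Jdp2, Star and Hsd3b1 passed the threshold in all 6 fits that each left out 1 library, and the remaining 13 passed in 1 to 3 of them. All 16 kept their direction in every alternative. With scaling by library size alone, Jdp2, Klf4, Id3, Star, Hsd3b1 and Spp1 still passed and the other 10 did not. Klf4 and Spp1 passed the filter on low counts only through the group in which they were higher, so their calls are not read as support.

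Of 11 relatives, 6 were tested and 2 fell, and no gene was called higher. Jdp2, a bZIP protein that pairs with JUN and represses AP-1 and CRE sites, had 17.7, 15.9 and 22.4 CPM in MA-10 cells against 3.18, 2.24 and 3.76 CPM in STARKO1 cells. The groups of Jdp2 were well apart, with a log2 fold change of -2.60 (SE 0.26, adjusted p = 0.00430). Atf3, a stress-induced bZIP factor that also pairs with JUN, had 11.6, 13.6 and 12.1 CPM in MA-10 cells against 6.41, 7.13 and 7.70 CPM in STARKO1 cells, a log2 fold change of -0.81 (SE 0.17, adjusted p = 0.0369). The call of Atf3 held in 2 of 8 alternatives with all libraries, and with library size alone its log2 fold change was -0.35 (adjusted p = 0.340). Egr3 had a log2 fold change of -0.88 (adjusted p = 0.103), Nab1, a corepressor of EGR proteins, of -0.75 (adjusted p = 0.0758) and Nab2 of -0.10, and none of these passed. Batf3, the other relative tested, had one of 0.51 (adjusted p = 0.254), which was not significant. Batf2, which did not pass the filter on low counts, had 0, 1 and 0 counts across MA-10 replicates 1 to 3. In STARKO1 replicates 1, 2 and 3 it had 10, 8 and 3 counts. Fosl1, Egr2, Egr4 and Batf were not analysed here.

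Of 25 upstream regulators tested, 3 passed, 2 higher and 1 lower, with a median log2 fold change of -0.12 for the list. Crem, a CREB relative whose short product represses cAMP-responsive promoters, had 3.55, 5.64 and 7.31 CPM in MA-10 cells against 2.28, 1.59 and 1.35 CPM in STARKO1 cells, a log2 fold change of -1.64 (SE 0.36, adjusted p = 0.0399). Crtc1, a coactivator of CREB, rose from 8.22 ± 3.58 CPM to 25.2 ± 2.14 CPM (SD, n = 3 each), a log2 fold change of 1.61 (SE 0.32, adjusted p = 0.0315). Elk4, which binds with serum response factor at promoters such as those of Fos and Egr1, rose from 23.0 ± 7.97 to 56.0 ± 2.06 CPM, a log2 fold change of 1.28 (SE 0.25, adjusted p = 0.0318). Creb1 itself had a log2 fold change of -0.39 (adjusted p = 0.104).

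Of 29 other rapidly induced genes tested, 6 passed, 2 higher and 4 lower, and the median log2 fold change was 0.03. Klf4, a zinc finger factor with 5 counts or fewer per STARKO1 library, had 1.72, 1.73 and 2.29 CPM in MA-10 cells. Its levels were 0.0860, 0.0589 and 0.281 CPM across STARKO1 replicates 1 to 3 (log2 fold change -3.71, SE 0.52). Klf4 is counted among the 6, but it entered the test through the MA-10 libraries, where it was higher. Its p value is therefore not given. Id3, an inhibitor of basic helix-loop-helix factors, had 7.62, 15.0 and 9.42 CPM in MA-10 cells against 1.81, 1.36 and 1.69 CPM in STARKO1 cells, a log2 fold change of -2.71 (SE 0.32, adjusted p = 0.00711). Like Egr1, Id3 was highest in MA-10 replicate 2, and the groups of both genes did not overlap. Btg1 and Gadd45a, which restrain growth, fell by 0.92 and 0.93 on the log2 scale (adjusted p = 0.0221 and 0.0289). Dusp5, a phosphatase of nuclear ERK, and Errfi1, an inhibitor of the EGF receptor, rose by log2 fold changes of 1.10 and 0.86 (adjusted p = 0.0259 and 0.0428). Over 8 alternatives with all libraries, the calls of Btg1 and Gadd45a held in 3 each, that of Dusp5 in 5 and that of Errfi1 in 4. Ier2 had 47.2, 171 and 112 CPM in MA-10 cells against 56.9 to 63.2 CPM in STARKO1 cells, with an adjusted p of 0.177, and was named after its values were seen.

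Of 9 genes for factors that bind or degrade AU-rich mRNA, such as those of many immediate-early genes, Zfp36l2 fell, by 0.91 on the log2 scale (SE 0.18, adjusted p = 0.0328), and the other 8 did not pass. Of 7 described NR4A targets of steroidogenic cells, with a median log2 fold change of -0.93, 2 fell. Besides Star itself, with a log2 fold change of -5.09, this was Hsd3b1, a 3β-hydroxysteroid dehydrogenase, which had 27.8, 37.2 and 24.3 CPM in MA-10 cells against 5.12, 5.72 and 4.72 CPM in STARKO1 cells (log2 fold change -2.52, SE 0.22, adjusted p = 0.00268). Hsd3b1 has close relatives such as Hsd3b6 with which reads could have been shared. Cyp17a1 and Insl3 on this list had positive log2 fold changes, 1.27 and 0.28, that were not significant (adjusted p = 0.0949 and 0.349). Of 11 described AP-1 and EGR1 targets tested, 2 passed and both were higher, while the median log2 fold change of the list was -0.20. At an unadjusted p under 0.05 there were 5 of the 11, beside 37.6% of all genes tested, so the count is near that of genes at large. Of these, Timp1, Vegfa and Plau were lower, with log2 fold changes of -1.18, -0.68 and -0.58 (adjusted p = 0.0949, 0.0768 and 0.0623). Spp1, which encodes osteopontin, had 7, 7 and 9 counts in the MA-10 libraries and 68, 48 and 44 in the STARKO1 libraries. Its mean rose from 0.600 ± 0.196 CPM to 2.74 ± 0.239 CPM, a log2 fold change of 2.21 (SE 0.33). Spp1 passed the filter on low counts through the STARKO1 libraries, where it was higher, so its p value is not given. F3, which encodes tissue factor, rose from 4.99 ± 1.53 CPM to 13.4 ± 0.851 CPM (SD, n = 3 each), a log2 fold change of 1.41 (SE 0.24, adjusted p = 0.0228).

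**Figure D5:**
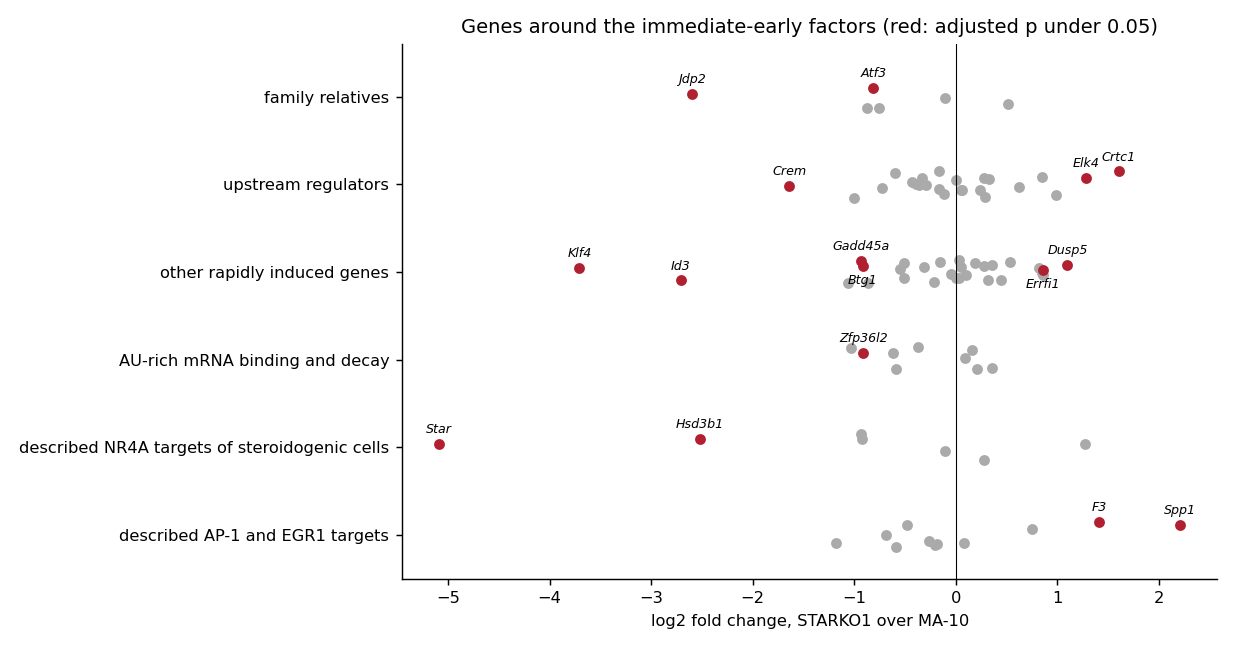
Log2 fold change of STARKO1 over MA-10 cells (x axis) for the tested genes of the 6 lists (y axis, with a small vertical scatter so that points can be told apart), red where the adjusted p is under 0.05. The named red points lie on both sides of 0 among the upstream regulators and other rapidly induced genes, and Jdp2 and Atf3 lie left of 0 among the relatives.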

How the data were processed

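RNA of 3 MA-10 and 3 STARKO1 libraries was prepared with a stranded total RNA kit. The authors deposited estimated counts per gene and library, not normalized. STAR 2.6.1d, Partek and build mm10 are given in the submitters' processing notes, without their roles, and the counting program is not given in the sources used here. A fractional value was present for 54.2% of genes. Values were rounded and fitted with edgeR 4.0.16 under R 4.3.3 (filterByExpr, TMM, glmQLFit and glmQLFTest, Benjamini-Hochberg adjustment over all genes tested), with the standard error (SE) taken as the size of the log2 fold change over the square root of F. Exon lengths, GC content and gene ends came from GENCODE M21, whose starts matched 14598 of 14641 genes found by symbol. CPM per kilobase used the union of exons. Promoters were those of RefSeq, GRCm38.p6. The alternatives were DESeq2 1.42.0, upper quartile scaling, library size alone, no filter, a replicate block, offsets for GC content or gene length (lowess, span 0.3) and leaving out each library.

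The genes named are the 10 immediate-early genes, the called genes of each list, Star and the gene of nearest pattern to each. Other genes were chosen after their values were seen. They were Egr3, Batf2, Batf3, Nab1, Nab2, Creb1, Ier2, Hsd3b6, Cyp17a1, Insl3, Timp1, Vegfa, Plau, overlapping genes and single cell type markers. The members and lists were chosen with earlier results of these data known. The scripts were tested on simulated counts. These held no library that stood apart and no trend with GC content, so that test does not bear on the spread of MA-10 replicate 1. Tables and figures were made with Python 3.11.15, scipy 1.17.1 and matplotlib 3.10.9.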

Additional observations from a re-analysis of the deposited data

How the results depend on the processing

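The number of differentially expressed genes moved from 1079 to 3395 with DESeq2, 330 with scaling by library size alone, 234 with the replicate number as a block, 460 with GC content offsets and the block, and 5086 with MA-10 replicate 1 alone against STARKO1, an alternative chosen after seeing the data. It ranged from 89 to 7990 when 1 library was left out. Of the 1079 genes 47.5% were higher in STARKO1 cells, against 63.6% of the 330 with library size alone, a scaling that moved the median log2 fold change of all genes by 0.43. For the immediate-early genes the count moved from 1 to 0 with library size alone, to 2 with no filter and to 0 with the replicate block. It ranged from 0 to 5 when 1 library was left out. Nr4a3 was 1 of the 2 with no filter. Nr4a3 was also the 1 gene called without MA-10 replicate 2, where it passed the filter through the MA-10 libraries, in which it was higher. For the listed genes it moved from 16 to 30 with DESeq2, 6 with library size alone, 5 with the block, 9 with GC content offsets and the block and 46 with MA-10 replicate 1 alone, and ranged from 3 to 52 when 1 library was left out. The log2 fold change of Egr1 was -1.46 with library size alone (adjusted p = 0.0666) and -1.94 with the block (adjusted p = 0.0503). Signs turned for Jun with library size alone (0.26), for Junb with GC content offsets (-0.075) and with these and the block (-0.061), and for Jund with MA-10 replicate 1 alone (-0.020), while Fos then passed at -1.47 but had -0.47 (adjusted p = 0.169) without that library. Library size alone also moved Nr4a1 to 0.87, Nr4a2 to 1.03, Fos to -0.59, Fosb to -0.27, Fosl2 to 0.83 and Junb to 0.65, and none of these passed. Leaving out 1 library gave log2 fold changes of 0.23 to 0.85 for Nr4a1, 0.38 to 0.79 for Nr4a2, -1.22 to -0.47 for Fos, -1.16 to -0.15 for Fosb, -0.25 to -0.10 for Jun, 0.33 to 0.80 for Fosl2, 0.072 to 0.41 for Junb, 0.72 to 2.53 for Jund and -2.20 to -1.55 for Egr1. The causes were not tested. Depth limits Nr4a3, Fosb and Klf4 most, since each had few counts in STARKO1 cells. Libraries of the same number did not deviate together, with correlations across genes of their deviations between -0.0178 and 0.0541, so the number is taken as a name only.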

Other observations

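The tested gene with the most similar pattern was looked up for each of the 9 genes, by the root mean square difference of log2(CPM + 0.5), centred on the mean over the 6 libraries. The nearest gene to Egr1 was 1700003F12Rik, at a difference of 0.148, with 1.83, 5.29 and 2.64 CPM in MA-10 cells against 0.430, 0.472 and 0.337 CPM in STARKO1 cells. Both were highest in MA-10 replicate 2. The nearest gene to Jund was Gm9794, at a difference of 0.107, with 72.6, 11.0 and 11.1 CPM in MA-10 cells against 64.7 to 68.3 CPM in STARKO1 cells. It thus also fell in MA-10 replicates 2 and 3. For the others the nearest genes were Orai3 for Nr4a1, Stk16 for Nr4a2, Sept12 for Fos, Parp6 for Fosb, Rybp-ps for Fosl2, Galk2 for Jun and Tmbim6 for Junb, at differences between 0.0115 and 0.176. With 6 libraries and 11939 genes, near matches are common, and a like pattern says nothing of shared control.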
